A study of Mus musculus with 6 samples.

Results

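The genes described here encode 39 enzymes of amino acid breakdown, chosen by gene symbol from a list of tyrosine, tryptophan, histidine, serine, threonine and glycine, proline and ornithine, lysine, branched-chain, and glutamate and aspartate enzymes. All 39 were found by symbol among the 34745 genes of the deposited table, and 38 of them were among the 12556 genes with enough counts to be tested. Messenger RNA was sequenced in 6 libraries of liver RNA from C57BL/6 mice, 3 labelled HKO (Sox9HKO in the series' design text) and 3 labelled WT (Sox9f/f there). Every mouse was 12 weeks old and had undergone partial hepatectomy (PHx), the removal of part of the liver after which the remainder regrows, 48 h earlier per the library titles. Hepatocyte is the labelled cell type and liver the labelled tissue, and the sources used here do not give the Cre line or other means by which Sox9 was deleted. Separate animals for the libraries are not stated, so the p-values rest on the spread between libraries, which may be technical. No library of an unoperated liver was analysed here, so every difference is one between genotypes after PHx.

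Hepatocytes are the main site in the body where most surplus amino acids are taken apart. Many routes open with an enzyme that commits the amino acid, often an aminotransferase, an oxygenase or a dehydrogenase. Later steps turn the carbon skeleton into intermediates of glucose, ketone body or citric acid cycle metabolism. Tat, Tdo2 and Sds are textbook targets of fasting hormones, glucocorticoids or amino acid supply in liver, and several members (Fah, Hpd, Hgd, Gldc, Amt, Bckdha, Bckdhb, Dbt, Ivd, Pcca, Pccb, Mut) are known from inherited disorders of amino acid metabolism.

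Sox9, the targeted gene, was at 6.34, 4.30 and 4.78 CPM (read counts brought to one library size, scaled between libraries by the TMM method of edgeR) in HKO 1, 2 and 3 and at 6.94, 13.7 and 11.3 CPM in WT 1, 2 and 3, a log2 difference of -1.05 (SE 0.27, edgeR adjusted p = 0.0284 by the quasi-likelihood test) whose call was lost in 5 of 15 alternative analyses (adjusted p 0.00402 to 0.0975). The sources used here do not give the part of Sox9 that was removed. The libraries held 16659778 to 21168233 counts and detected 15509 to 16284 genes. Albumin, the major hepatocyte product, was at 49761 to 77671 CPM, and the 10 hepatocyte markers, to which it gave most of the counts, summed to 90764 to 95955 CPM in HKO and 95194 to 116439.8 CPM in WT. Of these 10 markers 3 (Cyp2e1, Cps1 and Ass1) were higher and 1 (Serpina1a) lower in HKO, with a median log2 fold change of 0.22. Of 14 Kupffer cell and macrophage markers, 13 were higher and 1 (Mpeg1) lower in HKO, with sums of 365 to 546 CPM in HKO and 402 to 427 CPM in WT. Mpeg1 gave a large part of the WT sums, at 191 to 209 CPM in WT and 59.9 to 89.4 CPM in HKO. In B and plasma cell markers, 3 of 3 tested were higher (sums 20.1 to 27.3 against 1.11 to 2.30 CPM), and 2 of 3 tested biliary markers were lower (34.7 to 57.0 against 64.6 to 171 CPM). HKO 2 stood apart: mitochondrially encoded genes took 25.9% of its counts against 12.1% to 16.3% elsewhere. Its pancreas and kidney markers summed to 159 CPM against 0 to 1.34 CPM elsewhere. Nearly all of this came from the pancreas genes Cela2a (101 CPM) and Prss2 (58.0 CPM). The 10 endothelial markers summed to 572 CPM in HKO 2, 185 and 222 CPM in HKO 1 and 3, and 119 to 175 CPM in WT. The stellate and fibroblast markers summed to 549.7 CPM in HKO 2, 129 and 144 CPM in HKO 1 and 3, and 84.8 to 128 CPM in WT. Both sums were above WT in every HKO library, narrowly for the stellate list in HKO 1. In these lists 1 of 10 and 2 of 9 tested markers were called higher and 0 lower. The part of these other cell types in the values below was not tested, and in bulk RNA fewer cells of a type cannot be told apart from less RNA per cell.

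Amino acid breakdown enzymes were more often higher than lower in HKO. Of the 38 tested, 13 rose, 1 (Amt) fell and 24 did not pass the test, while over all 12556 genes 23.2% passed it, 12.1% higher and 11.2% lower (edgeR, Benjamini-Hochberg adjusted p below 0.05). The log2 fold change was positive for 34 members and negative for 4, with a median of 0.33 against 0.02 over all genes tested. For 22 members the ranges of HKO and WT were separate, 21 of them higher in HKO, where the background was 44.2% without overlap and 22.6% higher without overlap. A difference of at least 2-fold was called for 5 members, Tat, Prodh, Afmid and Bckdha higher and Amt lower. The share of all genes with such a difference was not counted, so this number has no background beside it. The Afmid value depends on reads shared with another record, as described below. Together the members took 1.62%, 1.23% and 1.60% of all counts in HKO 1, 2 and 3 and 0.946%, 0.930% and 0.905% in WT 1, 2 and 3, so the shares of the 3 HKO libraries lay above those of the 3 WT libraries. Abundant members weigh most in these shares. Tat alone gave 50960 of 293497 member counts in HKO 1 and 13701 of 161060 in WT 1. All counts here include the mitochondrially encoded genes, which took 25.9% in HKO 2. The number of members called higher was 8 without WT 3 and 16 without HKO 2 or by DESeq2. Calls over all genes tested moved too, from 1516 of 12556 higher in the main fit to 722 of 12827 without WT 3. They were 1589 of 12716 without HKO 2 and 1606 of 12556 by DESeq2.

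**Figure D1:**
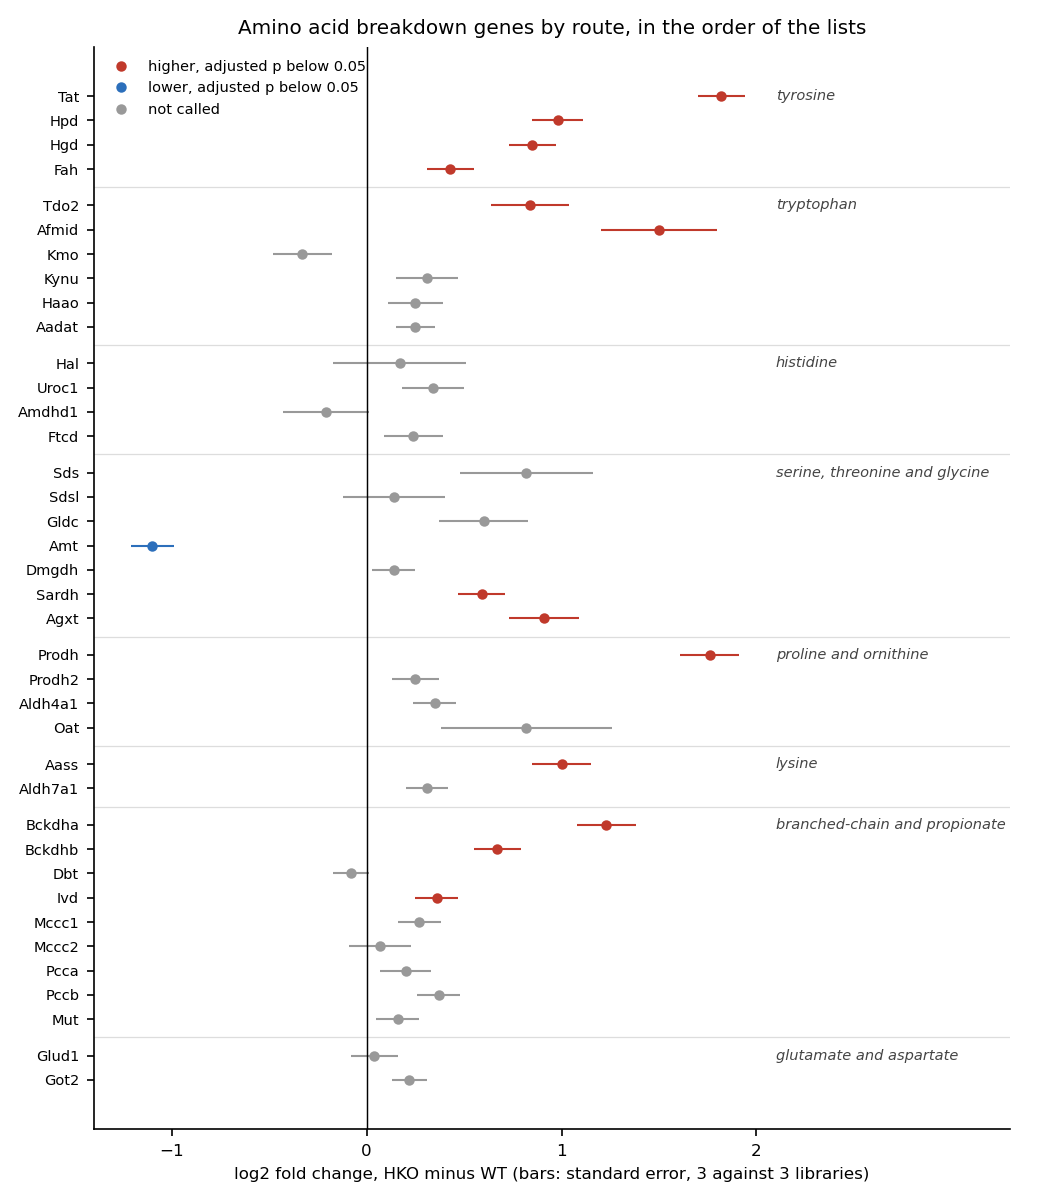
Log2 fold change of each tested member, HKO minus WT, with its standard error (3 against 3 libraries), grouped by route. All 4 tyrosine genes are higher, Tat and Prodh lie furthest to the right at 1.82 and 1.76, and Amt at -1.10 is the only called gene on the left.

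All 4 tyrosine members rose. Tat, the tyrosine aminotransferase that opens the route (ENSMUSG00000001670, GRCm38 chromosome 8, 109990437 to 109999803, plus strand), was at 2738, 2468 and 2787 CPM in HKO 1, 2 and 3 and at 761, 761 and 745 CPM in WT 1, 2 and 3. The lowest HKO library thus stood far above the highest WT library, and the WT libraries were nearly equal. Its mean was 3.52-fold higher (log2 fold change 1.82, SE 0.12, adjusted p = 1.94e-04 by edgeR), and its adjusted p stayed at or below 0.00424 in all 15 alternative analyses. Scaled by length, Tat was at 1045 ± 123 FPKM in HKO and 296 ± 16.3 FPKM in WT (SD, n = 3), the highest of the members in HKO. Oat had a WT mean of 314 ± 235 FPKM, with 127 FPKM in its lowest and 578 FPKM in its highest library, so its rank among the WT levels rests on WT 1. Hpd, which turns 4-hydroxyphenylpyruvate into homogentisate, rose by a log2 difference of 0.98 (SE 0.13, adjusted p = 0.00253 by edgeR), from 678 ± 33.8 to 1333 ± 182 CPM. Hgd, which opens the homogentisate ring, rose by 0.85 (SE 0.12, adjusted p = 0.00331 by edgeR), from 278 ± 18.7 to 502 ± 65.4 CPM. Fah, the last enzyme of the route, splits fumarylacetoacetate. It was at 529, 412 and 451 CPM in HKO 1, 2 and 3 and at 339, 355 and 342 CPM in WT 1, 2 and 3, a narrow gap without overlap. Its log2 fold change of 0.43 (SE 0.12, adjusted p = 0.0335 by edgeR) was no longer called in 8 of 15 alternatives, among them the omission of each library except HKO 2 (0.0818 to 0.126), with adjusted p from 0.0114 to 0.126 over all 15. Gstz1, the maleylacetoacetate isomerase that acts between Hgd and Fah and was listed with the other genes of the route, had a log2 difference of 0.30 (SE 0.10, adjusted p = 0.0631 by edgeR) and was not called.

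Promoter sequence was available in RefSeq (GRCm38.p6) for 32 of the 39 members as windows from 250 bases before to 50 after the annotated start. The plan was to show Tat, Afmid, Prodh, Bckdha and Amt, the called members with the largest changes. Prodh, Bckdha and Amt were left out because their RefSeq starts lie 1013, 220 and 52 bases from the gene starts in the deposited table. Afmid was left out because another gene record covers its window. The 250 bases before the start are shown for Tat, the member with the largest rise, and for Hgd and Aass, which were picked after the values were seen because they are the called members whose windows match the C/EBP motif. Each start lies within 1 base of the gene start in the deposited table, and the windows are chr8:109990186-109990435 (plus strand), chr16:37579903-37580152 (plus strand) and chr6:23132987-23133236 (minus strand), written 5′ to 3′ with motif matches in capitals.
Tat: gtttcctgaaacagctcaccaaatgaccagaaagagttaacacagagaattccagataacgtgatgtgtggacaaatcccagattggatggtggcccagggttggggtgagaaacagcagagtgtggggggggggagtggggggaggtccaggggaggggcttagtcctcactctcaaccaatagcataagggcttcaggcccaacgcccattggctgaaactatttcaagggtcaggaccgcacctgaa
Hgd: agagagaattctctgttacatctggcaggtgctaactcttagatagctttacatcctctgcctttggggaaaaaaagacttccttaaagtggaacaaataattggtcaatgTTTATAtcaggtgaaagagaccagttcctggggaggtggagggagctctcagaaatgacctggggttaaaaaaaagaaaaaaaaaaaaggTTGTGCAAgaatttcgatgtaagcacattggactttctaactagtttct
Aass: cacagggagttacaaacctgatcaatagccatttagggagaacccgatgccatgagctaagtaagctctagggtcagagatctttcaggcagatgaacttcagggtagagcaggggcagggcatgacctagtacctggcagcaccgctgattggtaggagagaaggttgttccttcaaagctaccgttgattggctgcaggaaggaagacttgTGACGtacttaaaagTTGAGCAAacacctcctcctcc
In Hgd the capitals are, from 5′ to 3′, a TATA box match on the reverse strand (139 to 134 bases before the start) and a C/EBP match on the reverse strand (49 to 42 before the start). In Aass they are a CRE core (37 to 33 before the start) and a C/EBP match on the reverse strand (22 to 15 before the start). A further C/EBP match of Hgd lies after the start and is not shown. The stretch shown for Tat holds none of the motifs searched. Both strands of all 27024 RefSeq windows were searched. The C/EBP motif TTGCNNAA was in 12.5% of the members' windows and in 10.7% of all windows, the CRE core TGACG in 9.4% and 20.9%, and the glucocorticoid receptor motif AGAACA in 15.6% and 19.0%. The forkhead motif TGTTTAC was in 0 of the 32 windows and 3.5% of all, the HNF4 motif CAAAGTCC in 3.1% and 1.4%, and the TATA box TATAAA in 15.6% and 14.2%. These motifs were counted separately where their letters overlap, and a match is a description of the letters, not of binding.

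In the tryptophan route the first steps rose and the later ones did not pass the test. Tdo2, tryptophan 2,3-dioxygenase, which opens the kynurenine pathway, was at 1355, 984 and 1395 CPM in HKO 1, 2 and 3 and at 533, 768 and 784 CPM in WT 1, 2 and 3. HKO 2 was the lowest HKO library and still above all WT libraries. The log2 fold change of 0.84 (SE 0.20, adjusted p = 0.0201 by edgeR) was not called without HKO 1 (0.0653), HKO 3 (0.0704) or WT 3 (0.0542), within a range of 2.32e-04 to 0.0704 over 15 alternatives. Kmo, the kynurenine hydroxylase of the outer mitochondrial membrane, had a log2 fold change of -0.33 (adjusted p = 0.137 by edgeR), with 284 to 329 CPM in HKO and 328 to 474 CPM in WT. Kynu, kynureninase, had 0.31 (0.192), Haao, the 3-hydroxyanthranilate dioxygenase, 0.25 (0.229), and Aadat, the 2-aminoadipate and kynurenine aminotransferase, 0.25 (0.103), and Aadat was called only without HKO 2 (0.0455, range over 15 alternatives 0.0455 to 0.266).

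Afmid, the formamidase that follows Tdo2 (ENSMUSG00000017718, chromosome 11, 117825924 to 117839908, plus strand), was at 38.5, 39.1 and 17.1 CPM in HKO 1, 2 and 3 and at 12.4, 11.3 and 9.76 CPM in WT 1, 2 and 3. HKO 3 lay between the other HKO libraries and WT. The log2 fold change was 1.50 (SE 0.30, adjusted p = 0.0113 by edgeR), and the call was lost without WT 3 (0.0549, range over 15 alternatives 6.97e-06 to 0.0549). Exons of Afmid share 1566 bases on the same strand with a second record, Gm20708, which had 10, 12 and 483 counts in HKO 1, 2 and 3 and 265, 203 and 244 counts in WT 1, 2 and 3. Where Afmid was low, Gm20708 was high, so how shared reads were divided bears on both values. In an analysis added after these values were seen, the summed level of both records was 39.1, 39.8 and 39.1 CPM in HKO and 27.1, 22.7 and 24.7 CPM in WT, a log2 difference of 0.66 (adjusted p = 0.00396 by edgeR). The sum thus rose with nearly equal HKO libraries, but by less than Afmid alone. Afmid also shares 83 exon bases with Tk1 on the opposite strand (Tk1 log2 fold change -0.25, adjusted p = 0.258 by edgeR), and it lies 5.04 Mb from Sox9 on the same chromosome.

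**Figure D2:**
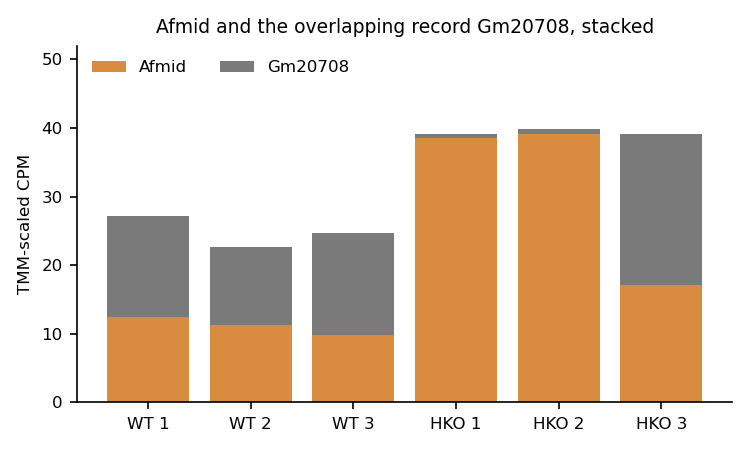
Stacked TMM-scaled CPM of Afmid (orange) and of the overlapping record Gm20708 (grey) in each library. The stacked sums are 39.1 to 39.8 CPM in HKO and 22.7 to 27.1 CPM in WT, while the split between the records in HKO 3 is unlike that in HKO 1 and 2.

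No histidine enzyme passed the test. Hal, histidine ammonia-lyase, which removes the amino group, was at 265, 183 and 262 CPM in HKO 1, 2 and 3 and at 103, 291 and 235 CPM in WT 1, 2 and 3. The WT values spanned the HKO values, with WT 1 lowest and WT 2 highest of all. For Hal the log2 fold change was 0.17 (SE 0.34, adjusted p = 0.745 by edgeR) and turned to -0.16 without WT 1. Uroc1, urocanate hydratase, had a log2 fold change of 0.34 (0.168), Amdhd1, the imidazolonepropionase, -0.21 (0.519) and Ftcd, which passes the formimino group to folate, 0.24 (0.293). Amdhd1 was called lower only without WT 1 (log2 fold change -0.46, adjusted p = 0.0451, range over 15 alternatives 0.0451 to 0.970 by edgeR or the other tools). Hal and Amdhd1 are neighbours on chromosome 10, 0.00403 Mb apart, and in both WT 1 was the lowest WT library, at -1.33 and -0.85 log2 units from the mean of WT 2 and 3.

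Among the 8 serine, threonine and glycine enzymes, 7 were tested, 2 rose and 1 fell. Amt, the aminomethyltransferase (T protein) of the glycine cleavage system (ENSMUSG00000032607, chromosome 9, 108296853 to 108302302), was at 22.0, 25.7 and 20.9 CPM in HKO 1, 2 and 3 and at 45.9, 49.9 and 50.6 CPM in WT 1, 2 and 3. Every HKO library lay far below every WT library, and the HKO mean was 46.8% of the WT mean. The log2 fold change was -1.10 (SE 0.11, adjusted p = 8.05e-04 by edgeR), with an adjusted p of at most 0.00821 in 15 alternatives. Gldc, the glycine decarboxylase (P protein) of the same system, was at 279, 234 and 326 CPM in HKO 1, 2 and 3 and at 124, 229.5 and 199 CPM in WT 1, 2 and 3. The groups did not overlap, though HKO 2 and WT 2 nearly met. Its log2 fold change of 0.60 (SE 0.23, adjusted p = 0.0900 by edgeR) did not pass, and it passed by DESeq2 alone (0.0352, range over 15 alternatives 0.0352 to 0.233). The remaining proteins of the system were picked after their values were seen: Gcsh (H protein) fell by 0.36 on the log2 scale (adjusted p = 0.0446 by edgeR, lost in 7 of 15 alternatives, range 0.0372 to 0.158), and Dld (L protein), shared with other dehydrogenase complexes, had -0.23 (0.0898).

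Sds, serine dehydratase, which makes pyruvate from serine, was at 272, 185 and 237 CPM in HKO 1, 2 and 3 and at 65.4, 186 and 141 CPM in WT 1, 2 and 3. WT 2 and HKO 2 were level and WT 1 was far below the rest. Sds had a log2 difference of 0.82 (SE 0.34, adjusted p = 0.116 by edgeR), with a call by DESeq2 alone (0.0315, range over 15 alternatives 0.0315 to 0.268). Sds shares 360 exon bases on the opposite strand with Plbd2, which rose by 0.82 (adjusted p = 0.00484 by edgeR), and no strand-marking step is described for these libraries, so reads there cannot be assigned to either gene. Sdsl, its close relative 0.00372 Mb away, had a log2 fold change of 0.14 (0.723). Agxt, the alanine-glyoxylate aminotransferase that removes glyoxylate, rose by 0.91 (SE 0.18, adjusted p = 0.0100 by edgeR), from 109.6 ± 25.8 to 205 ± 21.8 CPM. Sardh, sarcosine dehydrogenase, rose by 0.59 (SE 0.12, adjusted p = 0.0112 by edgeR), a call lost without WT 3 (0.0648, range 1.55e-04 to 0.0648), while Dmgdh, which precedes it in choline breakdown, had 0.14 (0.388). Tdh, threonine dehydrogenase, had 0 counts in 5 libraries and 2 counts in WT 3, and was not tested.

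Proline breakdown opened with one of the strongest rises. Prodh, the mitochondrial proline dehydrogenase (ENSMUSG00000003526, chromosome 16, 18060357 to 18090203), was at 177, 128 and 148 CPM in HKO 1, 2 and 3 and at 51.6, 39.4 and 43.0 CPM in WT 1, 2 and 3. No HKO library came near the WT range, and the mean was 3.38-fold higher. Prodh had a log2 difference of 1.76 (SE 0.15, adjusted p = 4.35e-04 by edgeR), with adjusted p of at most 0.00621 in 15 alternatives. Prodh2, which acts on hydroxyproline, had a log2 fold change of 0.25 (0.158), and Aldh4a1, the next enzyme after Prodh, 0.35 (0.0561), called by DESeq2 (0.0338) and without WT 1 (0.0306) within a range of 0.0306 to 0.208 over 15 alternatives. Oat, ornithine aminotransferase, was at 1226, 1029 and 1243 CPM in HKO 1, 2 and 3 and at 1179, 284 and 518 CPM in WT 1, 2 and 3. WT 1 lay in the HKO range and the other WT libraries far below it. Its log2 fold change was 0.82 (SE 0.44, adjusted p = 0.210 by edgeR), and 1.53 (0.0113) without WT 1, the only one of 15 alternatives in which it was called (range 0.0113 to 0.435). In the opposite direction of the same chemistry, Aldh18a1, which makes proline and ornithine precursors, fell by 2.02 on the log2 scale (adjusted p = 0.00594 by edgeR), from 5.19 ± 0.232 to 1.28 ± 0.612 CPM.

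In lysine breakdown Aass, the bifunctional enzyme of the first steps (chromosome 6, 23072173 to 23132986), was at 643, 505 and 668 CPM in HKO 1, 2 and 3 and at 260.3, 332 and 319 CPM in WT 1, 2 and 3. Its lowest HKO library lay above its highest WT library, and the log2 difference was 1.0 (SE 0.15, adjusted p = 0.00350 by edgeR), called in all 15 alternatives. Aldh7a1, the next aldehyde dehydrogenase, had 0.31 (0.0818), called only without HKO 2 (0.0297, range 0.0297 to 0.243). Dhtkd1, which acts further down on 2-oxoadipate, a product of both lysine and tryptophan, rose by 1.45 (SE 0.19, adjusted p = 0.00208 by edgeR).

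For branched-chain amino acids, both E1 subunits of the committing complex rose, while its E2 subunit did not pass the test. Bckdha, the E1 alpha subunit of branched-chain keto acid dehydrogenase (ENSMUSG00000060376, chromosome 7, 25629946 to 25658981), was at 233, 175 and 208 CPM in HKO 1, 2 and 3 and at 74.3, 102 and 85.4 CPM in WT 1, 2 and 3. All HKO libraries lay well above all WT libraries, and the mean was 2.35-fold higher (log2 fold change 1.23, SE 0.15, adjusted p = 0.00161 by edgeR). Bckdhb, the E1 beta subunit, was at 69.1, 52.9 and 59.1 CPM in HKO 1, 2 and 3 and at 36.3, 37.6 and 39.9 CPM in WT 1, 2 and 3. The groups were again apart, and Bckdhb rose by 0.67 (SE 0.12, adjusted p = 0.00699 by edgeR). Dbt, the E2 core subunit, had 74.4 ± 3.41 CPM in HKO and 78.4 ± 4.60 CPM in WT, a log2 difference of -0.08 (SE 0.09, adjusted p = 0.580 by edgeR). The genes that switch the complex on and off, picked after their values were seen, were Bckdk, its inhibitory kinase, with -0.11 (0.519), and Ppm1k, its activating phosphatase, which fell by 0.40 on the log2 scale (adjusted p = 0.0335 by edgeR, lost in 6 of 15 alternatives, range 0.0206 to 0.129). Exons of Bckdha share 1171 bases with B3gnt8 on the opposite strand, and B3gnt8 had 0 to 12 counts per library against 1338 to 4567 for Bckdha.

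Further down, Ivd, the isovaleryl-CoA dehydrogenase of leucine breakdown, was at 103, 86.9 and 104 CPM in HKO 1, 2 and 3 and at 83.0, 72.6 and 74.3 CPM in WT 1, 2 and 3. The groups did not overlap but lay close. Its log2 fold change of 0.36 (SE 0.11, adjusted p = 0.0487 by edgeR) was not called in 11 of 15 alternatives (range 0.0233 to 0.167), including the omission of any library but HKO 2. The methylcrotonyl-CoA carboxylase subunits Mccc1 and Mccc2 had 0.27 (0.107) and 0.07 (0.786), the propionyl-CoA carboxylase subunits Pcca and Pccb 0.20 (0.307) and 0.37 (0.0544), and Mut, the B12-dependent methylmalonyl-CoA mutase, 0.16 (0.309). Pccb was called with a filter of 1 CPM (0.0488) and without HKO 2 (0.0208), within a range of 0.0208 to 0.184. Mmab, which makes the cobalamin cofactor of Mut, fell by 1.37 on the log2 scale (adjusted p = 0.00155 by edgeR), from 19.4 ± 2.94 to 7.51 ± 1.13 CPM.

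Neither of the glutamate and aspartate members passed the test. Glud1, glutamate dehydrogenase, was at 1026, 926 and 1001 CPM in HKO 1, 2 and 3 and at 848, 1002 and 1025 CPM in WT 1, 2 and 3, with fully overlapping groups (log2 fold change 0.04, SE 0.12, adjusted p = 0.841 by edgeR). Got2, the mitochondrial aspartate aminotransferase, had 0.22 (SE 0.09, adjusted p = 0.107 by edgeR). Its cytosolic counterpart Got1, from the wider list, rose by 1.96 (SE 0.14, adjusted p = 2.78e-04 by edgeR), from 81.6 ± 13.8 to 318 ± 30.2 CPM.

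**Figure D3:**
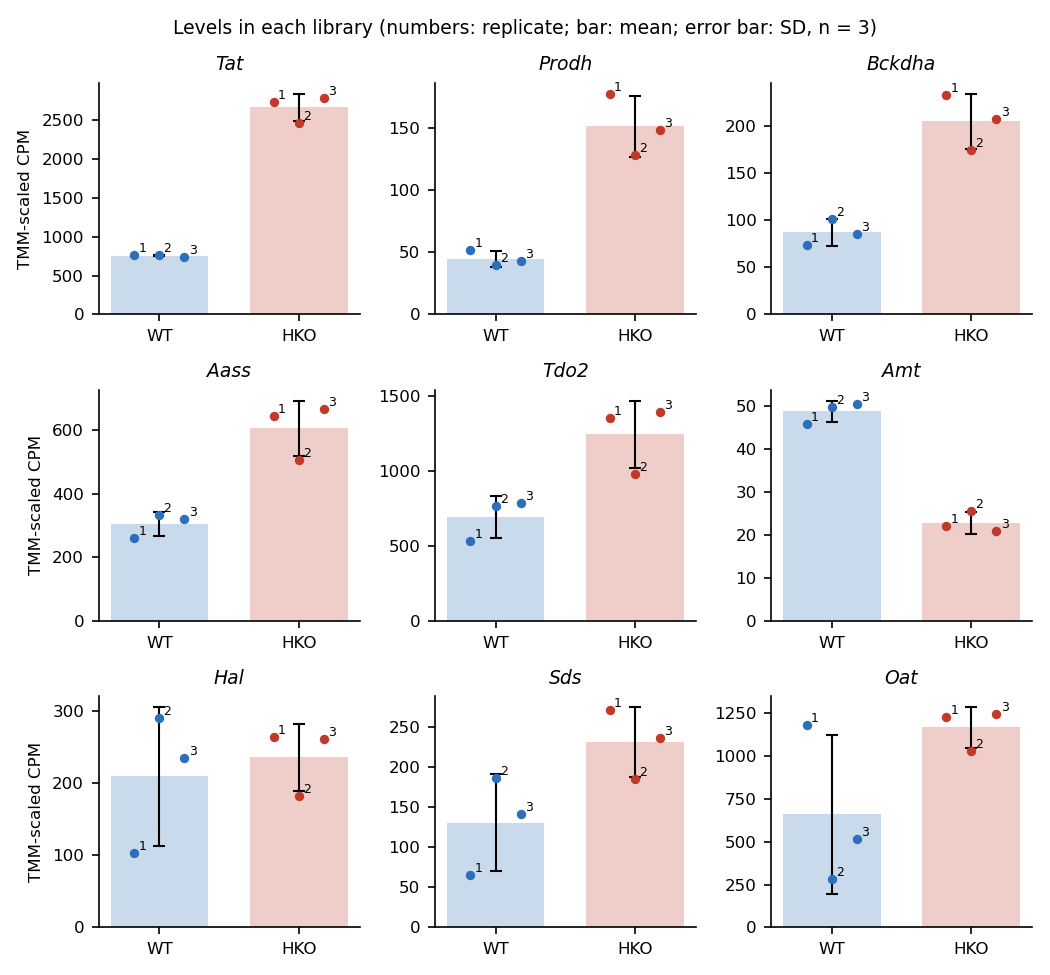
TMM-scaled CPM of 9 members in each library (numbered points), with the group mean (bar, axis from 0) and SD (n = 3). Tat, Prodh, Bckdha, Aass, Tdo2 and Amt have separate groups, whereas Hal, Sds and Oat have a WT group spread widely, with WT 1 lowest for Hal and Sds and highest for Oat.

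Ratios of counts within a library do not depend on library scaling, and 8 pairs of partner genes were compared after the values had been seen. The Gldc to Amt ratio was 12.7, 9.10 and 15.6 in HKO 1, 2 and 3 and 2.70, 4.60 and 3.92 in WT 1, 2 and 3. The Bckdha to Dbt ratio was 3.09, 2.48 and 2.69 in HKO and 1.01, 1.23 and 1.09 in WT. The Prodh to Prodh2 ratio was 1.84, 1.63 and 2.0 in HKO and 0.734, 0.551 and 0.637 in WT. In all 3 pairs the groups were apart. The Bckdha to Bckdhb, Sds to Sdsl and Prodh to Aldh4a1 ratios were also higher in all HKO libraries. For these 6 pairs a two-sided exact permutation test over libraries gave p = 0.1, which is the lowest value possible with 3 against 3, and 0.133 after adjustment over the 8 pairs. The Mccc1 to Mccc2 and Pcca to Pccb ratios overlapped between groups (exact permutation p = 0.4 and 0.3). These ratios share the counts behind the fold changes above and are the same differences in another form.

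**Figure D4:**
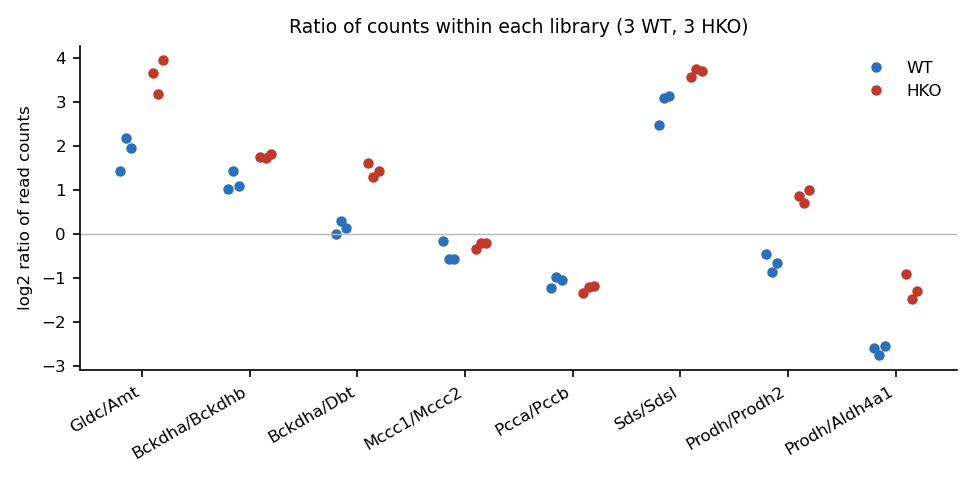
Log2 ratio of the counts of 2 partner genes in each library, for 8 pairs (blue WT, red HKO, 3 libraries each). The groups are separate in 6 pairs, with mean log2 ratios of 3.60 in HKO and 1.87 in WT for Gldc/Amt and 1.46 and 0.14 for Bckdha/Dbt, and overlap for Mccc1/Mccc2 and Pcca/Pccb.

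By route, the median log2 fold change was 0.91 for tyrosine (4 genes tested), 0.65 for lysine (2 genes) and 0.59 for serine, threonine and glycine (7 genes). It was 0.58 for proline and ornithine (4 genes), 0.28 for tryptophan (6 genes) and 0.27 for branched-chain and propionate (9 genes). For histidine it was 0.21 (4 genes) and for glutamate and aspartate 0.13 (2 genes), against 0.02 over all genes tested. Medians of so few genes follow single members closely. No test of a difference between routes, entry and later steps or compartments was made, and the counts stand beside 12.1% higher and 11.2% lower over all genes tested. The 10 members listed as entry enzymes (Tat, Tdo2, Hal, Sds, Gldc, Prodh, Aass, Bckdha, Bckdhb and Glud1) had 6 called higher, 0 lower and a median of 0.83. The other 28 tested members had 7 called higher, 1 lower and a median of 0.26. That list was drawn up with earlier results known, counts Bckdha and Bckdhb of 1 complex separately, and leaves Dbt of the same complex and Oat among the other members. This complex does not open branched-chain breakdown but acts after the aminotransferases Bcat1 and Bcat2 of the wider list, named after their values were seen. Bcat1 was not tested, and Bcat2 had a log2 fold change of 0.11 (adjusted p = 0.625 by edgeR). Of cytosolic enzymes 6 of 14 rose and none fell (median 0.38), and of mitochondrial enzymes 6 of 22 rose and 1 fell (median 0.26).

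**Figure D5:**
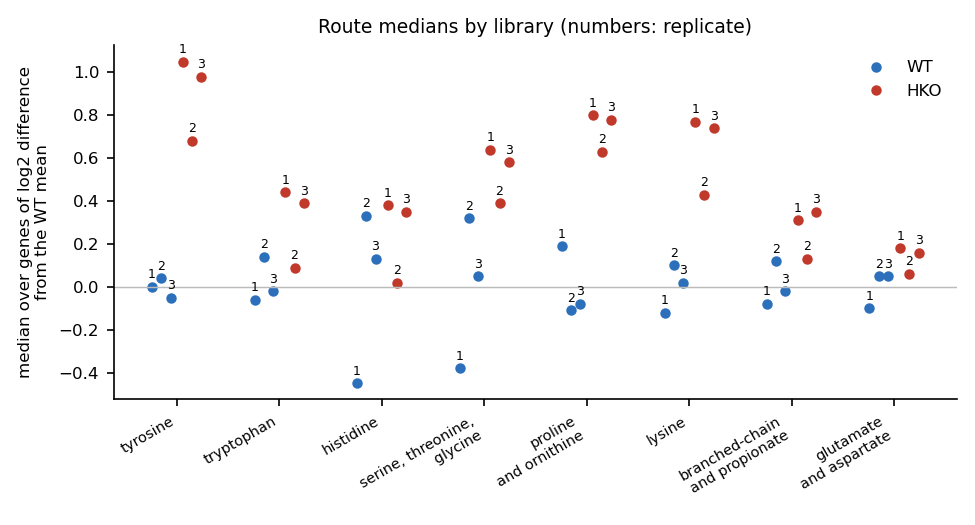
Median over the tested genes of each route of the log2 difference from the WT mean, per library (blue WT, red HKO, numbers are replicates). HKO 2 is the lowest HKO library in all 8 routes, and WT 1 ranges from -0.45 in histidine to 0.19 in proline and ornithine.

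Library differences within a genotype ran through many members. HKO 2, the library with the high mitochondrial share and the pancreas and stellate markers, was below both other HKO libraries for 34 of 38 members, with a median difference of -0.25 log2 units from the mean of the other two against -0.01 over all genes. Leaving the mitochondrially encoded genes out of the counts left all 38 member results on the same side of the threshold. WT 1 was below both other WT libraries for 25 members (median -0.14 against 0.01 over all genes), and it was 1.62 log2 units above their mean for Oat but -1.30 from it for Sds and -0.78 for Gldc.

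Of 55 further genes of these pathways, 53 were tested, of which 16 rose and 6 fell (median log2 difference 0.20), beside 12.1% higher and 11.2% lower over all genes tested, so the count that fell is near the background. Among the largest rises were Got1, Dhtkd1 and Gnmt, a glycine N-methyltransferase that rose by 1.41 (SE 0.15, adjusted p = 0.00103 by edgeR). The largest falls were those of Aldh18a1, Mmab and Bhmt, which remethylates homocysteine with betaine (-1.11, SE 0.20, adjusted p = 0.00826 by edgeR).

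Of 8 transcription factors and coactivators known for these enzymes, 4 rose and 1 fell, against the same background. Cebpb, a C/EBP factor, rose from 27.2 ± 6.45 to 65.5 ± 13.2 CPM (a log2 difference of 1.27 with SE 0.20, adjusted p = 0.00474 by edgeR). Foxo1, a forkhead factor active in fasting, rose by 1.03 (SE 0.15, adjusted p = 0.00289 by edgeR), and Ppargc1a, a coactivator of fasting genes, by 0.97 (SE 0.23, adjusted p = 0.0195 by edgeR). Klf15, known for control of amino acid breakdown, rose by 0.56 (SE 0.12, adjusted p = 0.0157 by edgeR). Nr3c1, the glucocorticoid receptor, fell by 0.49 on the log2 scale (SE 0.12, adjusted p = 0.0255 by edgeR). The Ppargc1a call was lost without HKO 3 or WT 3 (adjusted p = 0.0626 and 0.0721, range 0.00138 to 0.0721), as was that of Klf15 (0.0502 and 0.0648, range 0.00200 to 0.0648), and that of Nr3c1 without WT 1, 2 or 3 (0.0564, 0.0748 and 0.0825, range 0.00873 to 0.0825). Cebpa had -0.07 (0.714) and Hnf4a 0.45 (0.0682).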

How the data were processed

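Gene expression in 6 mouse liver RNA libraries (3 HKO, 3 WT) was analysed from 1 table. The authors deposited a whole-number read count, not normalized, and an FPKM, which divides by gene length and column total, per gene and library, per the file headers. HISAT2 2.0.4, StringTie 1.3.0, mm10 and GRCm38.p4 are named without roles, per the submitters' processing notes. The sources used here do not say how a read matching more than 1 gene was counted.

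Counts were analysed with edgeR 4.0.16 in R 4.3.3 (filterByExpr on the groups, TMM, quasi-likelihood F-test, no block). P-values were adjusted by Benjamini-Hochberg over 12556 genes and called below 0.05. Bare numbers in parentheses after a fold change are adjusted p-values of that test. Log2 fold changes are HKO minus WT, and levels are TMM-scaled CPM or the deposited FPKM as mean ± SD. Totals of 16659778 to 21168233 counts per library limit the precision of low genes such as Tdh, and the division of reads shared with Gm20708 bears on Afmid. Exon overlaps and RefSeq promoters were on GRCm38. Exons of 12 members overlap another gene, as do those of Cebpb, Foxo1, Dhtkd1 and Bhmt. Without a described strand-marking step, values of genes that overlap on opposite strands are uncertain. Afmid and Aldh4a1 overlap a record on the same strand, which strand marking would not separate. The fit was tested on simulated data.

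Alternatives were DESeq2 1.42.0, limma-voom (limma 3.58.1), other scalings and filters, a replicate block and the omission of each library, 15 in all, and 1 added after seeing the data (Afmid and Gm20708 summed). The members and lists were chosen with earlier results of these data known. All members have a log2 fold change; values in every library are given for entry enzymes, the largest called change per route, called members against their route's direction, and members whose call or direction changed in at least 3 alternatives. Of other pathway genes the 4 largest called changes each way, called regulators and Sox9 are named, except genes that, like 1 of the 7 motifs searched, are not reported here. Protein sequences were not used here.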

Additional observations from a re-analysis of the deposited data

How the results depend on the processing

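Over 15 other analyses the called rises of Tat, Hpd, Hgd, Agxt, Prodh, Aass, Bckdha and Bckdhb and the fall of Amt kept their direction and their side of the threshold. The cause of the changes below was not tested. Members called higher numbered 13, and 8 to 16 with 1 library left out (8 without WT 3). Members called lower numbered 1, and 1 to 2 with 1 library left out (2 without WT 1). Over all genes tested, 1516 were called higher, and 722 to 1589 with 1 library left out (722 without WT 3). Those called lower numbered 1401, and 682 to 1546 with 1 library left out (1053 without WT 1). The counts of the routes below stand beside these totals.

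With 1 library left out, the tryptophan route had 0 to 3 called higher. The histidine route had 0 to 1 called lower, and its median log2 fold change was -0.04 to 0.42, reversed to -0.04 without WT 1. The serine, threonine and glycine route had 1 to 2 called higher and a median of 0.37 to 0.68, and 4 called higher by DESeq2. The proline and ornithine route had 1 to 3 called higher and a median of 0.39 to 0.98, with 2 called higher by DESeq2 and a median of 0.70 by limma-voom. The lysine route had 1 to 2 called higher, and the glutamate and aspartate route a median of 0.07 to 0.17. Members that were not called changed sign as follows. Hal ranged from -0.16 (without WT 1) to 0.48, Sdsl from -0.07 (without HKO 1, and -0.06 without WT 1) to 0.39, Mccc2 from -0.09 (without WT 1, and -0.02 without HKO 1) to 0.20, and Glud1 from -0.05 (without WT 1, and -0.01 without HKO 1) to 0.09, with 0.00 by upper-quartile scaling.

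With the replicate number as a block, 11 members were called higher and 1 lower (1245 and 1115 over all genes tested). The proline and ornithine median was 0.71. The replicate numbers did not pair the libraries (correlations of same-numbered deviations -0.002, 0.002 and 0.072), and 1 of 3 numbers, the third, correlated best with its own. Depth limits Tdh, the division of reads shared with Gm20708 bears on Afmid, and 3 libraries per group limit every call near the threshold.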
